A study of Mus musculus with 86 samples.

Results

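The stathmin family RNAs of the mouse are the products of 4 genes, Stmn1, Stmn2, Stmn3 and Stmn4, chosen here by symbol from the 53664 genes of the annotation. Together these genes have 19 annotated transcripts. RNA was sequenced from the soma and the neurites of cultured mouse neuronal cells in which TDP-43, an RNA-binding protein encoded by Tardbp, had been removed or replaced by a mutant form. Cells were grown on microporous transwell membranes in medium without serum, so that neurites passed through the pores. The soma was then scraped from the upper face, and the neurites stayed on the underside. There were 36 libraries in 12 groups, with 3 libraries in each group. The sources used here do not say whether the 3 libraries of a group came from separate cultures, so p-values measure the spread between these libraries only.

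CAD is a mouse catecholaminergic-type neuronal line of brain origin and N2A is a mouse neuroblastoma line. The CAD and N2A cells of the knockout experiment had the labelled genotype TetOff TDP-43. Their endogenous Tardbp alleles had been inactivated with CRISPR, a single-copy HA-tagged TDP-43 transgene that doxycycline switches off took their place, and the lines were grown from single cells. Wild type here means these same cells without doxycycline, and knockout means cells given doxycycline for 48 h, at 2 μg/mL per the labels and at a lower concentration per the study's fractionation methods. The knockout groups therefore differed from wild type in doxycycline as well as in TDP-43, and the effects of the drug and of the lost protein cannot be told apart. In the third experiment CAD cells carried a single-copy doxycycline-inducible transgene for HA-tagged TDP-43. It was either wild type or carried the Q331K change, which is associated with amyotrophic lateral sclerosis. All of those cells kept their own Tardbp alleles, and both transgene groups were induced. The values are from bulk RNA, in which fewer cells of a type and less RNA per cell cannot be told apart.

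Stathmins bind the α- and β-tubulin dimers from which microtubules are built. When bound, the dimers cannot join a growing microtubule, and phosphorylation of the stathmin by cell-cycle, stress-activated and calcium-dependent kinases releases them. Stmn1 encodes stathmin itself, a cytosolic protein of dividing and immature cells. Stmn2, Stmn3 and Stmn4 encode the neuronal members, which carry an N-terminal extension that anchors them to Golgi-derived vesicles on their way into axons and growth cones. Stmn2 protein is short-lived and is used in axon growth and maintenance. In human neurons TDP-43 keeps a cryptic exon in the first intron of STMN2 out of the mature RNA, and the RNA is truncated when TDP-43 is lost. The mouse gene lacks that site, and the values here are for mouse RNA only.

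TDP-43 prefers RNA rich in GU repeats, so the 3′ untranslated regions (3′ UTRs) of the main coding transcripts were searched for 3 motifs. They were GTGTG, the shifted form of that repeat written as TGTGT, and a variant with an A in the middle, GTATG. Positions are those of build GRCm38 with the GENCODE annotation of release M21, and the search covered the transcript strand only. The repeat and its shifted form overlap each other, and each start was counted. The Stmn2 3′ UTR of 1281 bases held 9 such starts, or 7.03 per kilobase, of which 4 were GTATG. That density lay at percentile 72.5 of the 13255 genes tested in CAD cells with a 3′ UTR of at least 100 bases. Each of these genes was taken at its longest 3′ UTR, and their median was 4.70 per kilobase. Among 1982 3′ UTRs within 20% of the length of that of Stmn2, 28.9% held as many starts or more and 98.7% held at least 1. Stmn1 held 2 starts in 440 bases (percentile 48.0), Stmn3 held 2 in 305 bases (percentile 69.0) and Stmn4 held 3 in the 546 bases of its transcript Stmn4-201 (percentile 59.1). The longest Stmn4 3′ UTR, of 632 bases in Stmn4-202, also held 3 starts (percentile 50.5). Of the 13255 genes, 88.5% held at least 1 start, so a match is a description of the sequence and not a binding site.

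A selection of the stretches around the matches is shown, with the matched letters in capitals. Those left out hold a GTATG of Stmn1, a TGTGT of Stmn3, a GTGTG of Stmn4 and further TGTGT of Stmn2. Stmn3 lies on the minus strand and the other members on the plus strand.
Stmn2, plus strand, chr3:8560326-8560355: agcaatggcggGTATGgcaagcccctccca
Stmn2, plus strand, chr3:8560393-8560422: gatatcaGTATGggaagtGTATGacatggt
Stmn2, plus strand, chr3:8560819-8560848: atcgtgggtacTGTGTGTccatgtgaacct
Stmn2, plus strand, chr3:8561540-8561569: tgctatcttcttGTATGtcattgtgagcaa
Stmn1, plus strand, chr4:134473643-134473672: cgggcacaatcgGTGTGctgggttaatggc
Stmn3, minus strand, chr2:181306514-181306543: acactaggccagGTGTGgctggggctctct
Stmn4, plus strand, chr14:66361609-66361638: tgggataaggtcTGTGTGcgtctgttcatt
A short annotated Stmn2 transcript, Stmn2-203, leaves out 1002 bases of this 3′ UTR as an intron, at chr3:8560337-8561338. The first GTATG of the Stmn2 3′ UTR forms the opening bases of that intron, and 8 of the 9 starts lie inside it. Across the splice the short transcript reads as follows, with its second exon in capitals.
Stmn2-203 junction, plus strand: ctgaagcaatggcggTGTAGGGCAATCCTG

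**Figure D1:**
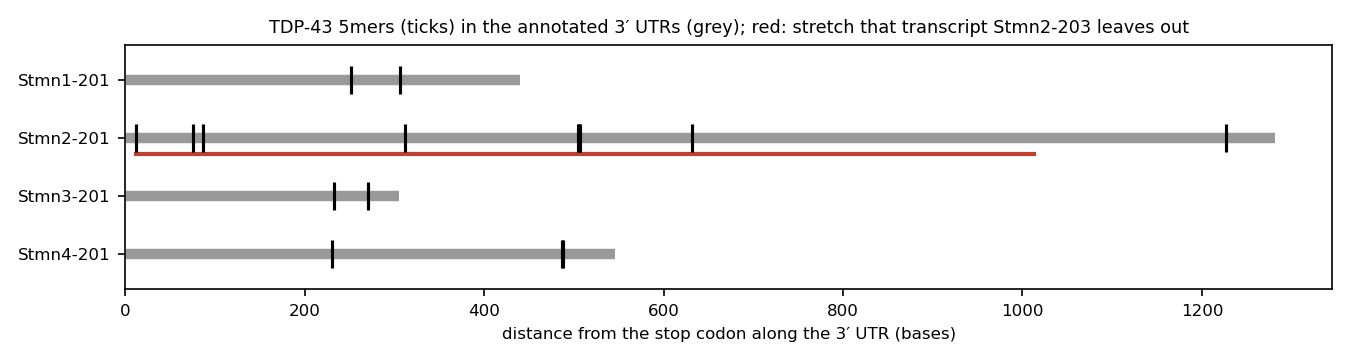
Positions of the GU-rich motifs (ticks) along the 3′ UTRs of Stmn1-201, Stmn2-201, Stmn3-201 and Stmn4-201, with the distance from the stop codon in bases on the x axis. The red bar is the stretch of 1002 bases that Stmn2-203 leaves out, which holds 8 of the 9 starts of Stmn2.

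All 4 genes passed the filter on low counts in each experiment. Stmn1 (ENSMUSG00000028832) spans chr4:134468320-134473843 on the plus strand and Stmn2 (ENSMUSG00000027500) spans chr3:8509360-8561606 on the plus strand. Stmn3 (ENSMUSG00000027581) lies at chr2:181306459-181314500 on the minus strand and Stmn4 (ENSMUSG00000022044) at chr14:66344296-66361680 on the plus strand. A microRNA gene, Gm23634, lies within Stmn1 and was at 9.25 TPM at most.

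Depth ranged from 25009904 to 32895542 estimated counts a library in CAD, from 22726534 to 31911030 in N2A and from 9783050 to 15870647 in the transgene experiment. Levels are given as CPM, the counts of a gene relative to the scaled total of its library, after TMM scaling, a scaling that sets the typical gene equal between libraries. Tardbp was at 491 to 695 CPM in wild-type libraries and at 90.3 to 265 CPM in knockout libraries, without overlap in either line or fraction, so every CAD and N2A library matched its labelled genotype. Of 9 neuronal markers 7 were at 1 TPM or more in each of the 12 groups, while the neurofilament genes Nefl and Nefm were under 1 TPM throughout. Markers of other brain cell types summed to between 2.14 and 20.5 TPM in a library. In CAD soma that sum was 8.79 to 13.6 TPM in wild type and 14.3 to 15.2 TPM in knockout, with 3 and 4 of its 9 genes at 1 TPM or more and none at 0 in every library of either group, and its part in the results was not tested. In N2A soma it was 15.2 to 20.5 TPM in wild type and 10.4 to 15.7 TPM in knockout, with 5 and 4 of the 9 genes at 1 TPM or more and Sox10 at 0 in the knockout libraries.

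In CAD soma the knockout lowered one stathmin RNA, raised a pair of others and left Stmn3 without a detected change. Stmn2 fell 1.41-fold, while Stmn1 rose 1.30-fold and Stmn4, the rarest member, rose 2.10-fold. At an adjusted p under 0.01 in edgeR's quasi-likelihood test, 3 of the 4 genes passed, where 22.8% of all 17343 tested genes did. Stmn2 was at 298, 303 and 318 CPM in the wild-type soma and at 202, 232 and 217 CPM in the knockout soma. The knockout libraries all lay below the wild-type ones, with a log2 change of -0.50 (SE 0.07, 95% interval -0.65 to -0.35, edgeR adjusted p = 3.95e-05). Stmn4 was at 13.6, 12.2 and 15 CPM in wild type and at 29.1, 31.0 and 25.6 CPM in knockout. Its groups stood apart, with a log2 change of 1.07 (SE 0.12, 95% interval 0.83 to 1.31, edgeR adjusted p = 2.41e-06). Stmn1 rose from 125, 128 and 136 CPM to 160, 176 and 169 CPM, again without overlap (log2 change 0.38, SE 0.06, edgeR adjusted p = 0.000185). Stmn3 was at 135, 126 and 158 CPM in wild type and at 127, 135 and 136 CPM in knockout. These ranges overlapped and the interval of its log2 change ran from -0.28 to 0.13 (edgeR adjusted p = 0.628). The 3 members without overlap compare with 43.9% of all tested genes whose libraries did not overlap between the genotypes.

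In CAD neurites the same members moved in the same directions, and 3 of 4 passed the test where 25.3% of all genes did. Stmn2 was at 583, 588 and 583 CPM in wild-type neurites and at 441, 439 and 395 CPM in knockout neurites. Every knockout library was below every wild-type library, and the fall was 1.37-fold (log2 change -0.46, SE 0.07, edgeR adjusted p = 7.55e-05). Stmn4 rose 2.46-fold, from 16.6, 14 and 18 CPM to 43.6, 42.2 and 34.1 CPM (log2 change 1.30, SE 0.12, edgeR adjusted p = 3.42e-07). Stmn1 rose 1.23-fold, from 210, 220 and 214 CPM to 265, 276 and 254 CPM (log2 change 0.30, SE 0.06, edgeR adjusted p = 0.00103). This was the smallest of the called changes and it lost its call when the second knockout neurite library was left out (edgeR adjusted p = 0.0124, over a range of 1.02e-07 to 0.0124 across its alternatives). Stmn3 was at 238, 230 and 272 CPM against 277, 228 and 227 CPM, with overlapping libraries and an interval of -0.22 to 0.19 (edgeR adjusted p = 0.920). The libraries of 3 members did not overlap between genotypes in CAD neurites, as for 46.6% of all tested genes. Stmn1, Stmn2 and Stmn4 kept the direction of their CAD changes under every alternative run in both fractions.

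**Figure D2:**
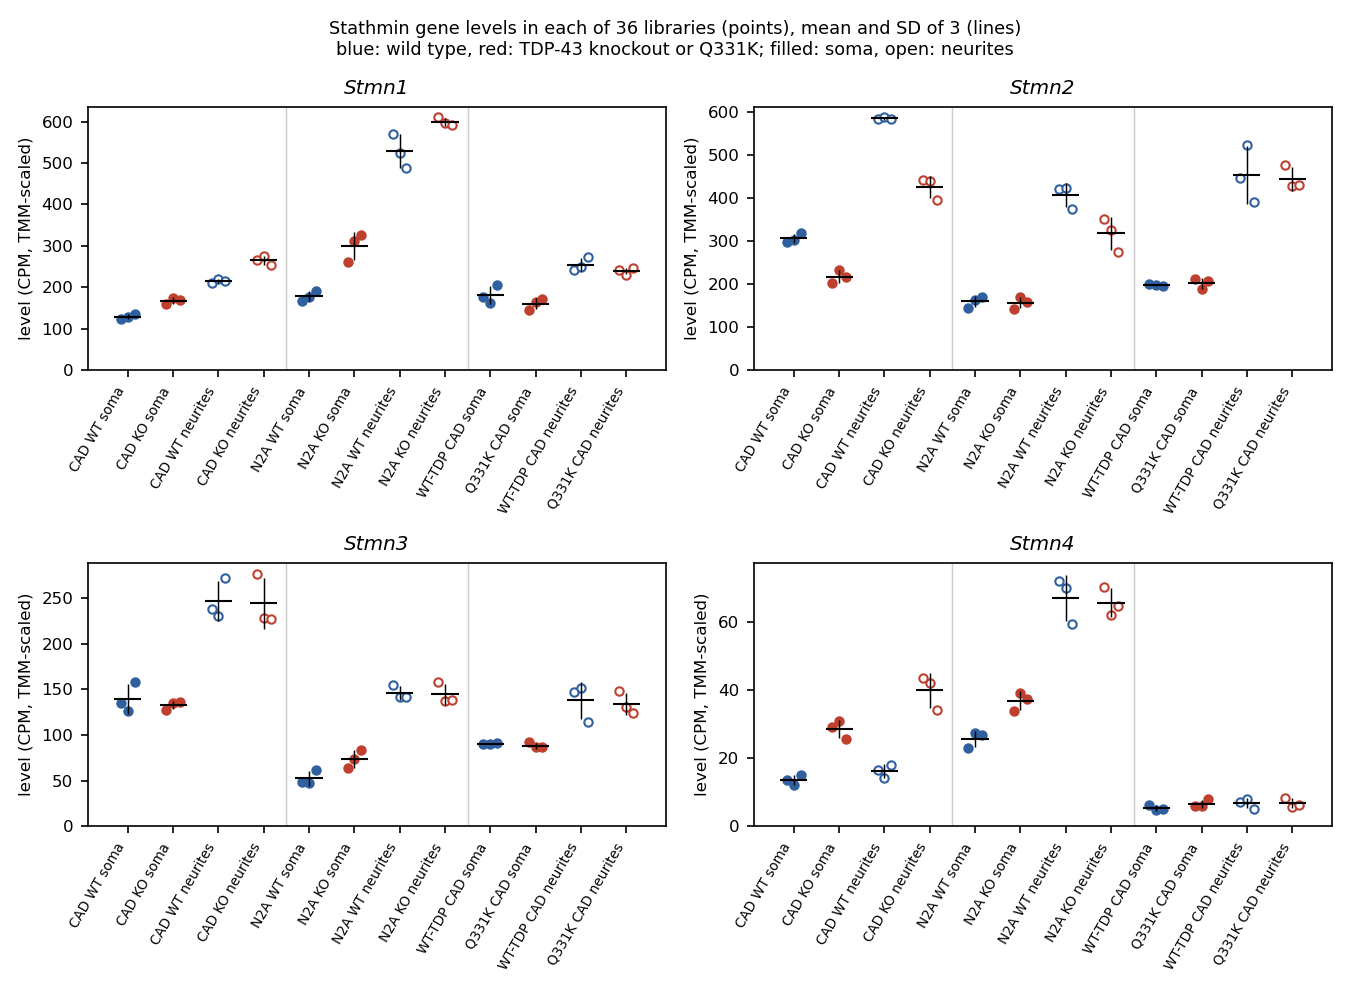
Levels of Stmn1, Stmn2, Stmn3 and Stmn4 in CPM (TMM-scaled) in the 12 groups, with each library as a point (blue wild type, red knockout or Q331K, filled soma, open neurites) and lines for the mean and SD of 3 libraries. Stmn2 is lower and Stmn4 higher in knockout than in wild-type CAD cells in both fractions, with 298 to 318 CPM against 202 to 232 CPM for Stmn2 in soma.

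In N2A soma the knockout raised 3 of the 4 members, where 16.1% of all 17912 tested genes passed (10.9% with a rise), and Stmn2 was not among them. Stmn1 was at 167, 178 and 192 CPM in wild type and at 260, 312 and 327 CPM in knockout. Its libraries did not overlap and it rose 1.67-fold (log2 change 0.74, SE 0.09, edgeR adjusted p = 4.73e-05). Stmn4 rose 1.43-fold, from 23.0, 27.4 and 26.7 CPM to 33.8, 39.3 and 37.5 CPM (log2 change 0.52, SE 0.10, edgeR adjusted p = 0.00119). Stmn3 rose 1.40-fold, from 48.4, 47.7 and 62.1 CPM to 63.9, 73.7 and 83.7 CPM (edgeR adjusted p = 0.00529). The call of Stmn3 depended on single libraries. Its adjusted p was 0.0190 to 0.0267 without wild-type soma 1 or 2 or without knockout soma 2 or 3, and ranged from 1.02e-05 to 0.0267 over its alternatives. Stmn2 was at 145, 163 and 171 CPM in wild type and at 142, 170 and 159 CPM in knockout, with wholly mixed libraries. The interval of its log2 change ran from -0.24 to 0.19 (edgeR adjusted p = 0.872), and its sign turned under several of the scalings. Libraries of 3 members did not overlap between genotypes in N2A soma, as for 42.1% of all tested genes.

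In N2A neurites no member passed the edgeR test, in which 11.6% of all genes were called. DESeq2, another count test, called 1 member there, Stmn2, among 18.9% of the genes it tested. Stmn2 was at 421, 423 and 374 CPM in wild type and at 351, 326 and 275 CPM in knockout, and these libraries did not overlap. Its log2 change was -0.36 (95% interval -0.57 to -0.14, edgeR adjusted p = 0.0203, ranging from 0.00172 to 0.0974 over 21 alternatives). Stmn1 also had libraries that did not overlap, at 570, 524 and 489 CPM against 611, 596 and 591 CPM (log2 change 0.18, 95% interval -0.02 to 0.38, edgeR adjusted p = 0.198). Stmn3 was at 155, 141 and 142 CPM against 158, 137 and 139 CPM, and Stmn4 at 72.0, 69.8 and 59.5 CPM against 70.3, 62.0 and 64.6 CPM. Both had overlapping libraries and adjusted p values of 0.958 and 0.866 in edgeR. The 2 members without overlap compare with 37.5% of all genes tested in N2A neurites. The share of counts from mitochondrial genes was 3.82% to 6.79% in the wild-type and 8.54% to 13.97% in the knockout N2A neurites, and 4.10% to 6.22% against 6.92% to 8.95% in the N2A soma. Summed catecholaminergic markers were at 329 to 464 TPM in wild-type and 545 to 633 TPM in knockout N2A soma. The part of either shift in the stathmin values was not tested.

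**Figure D3:**
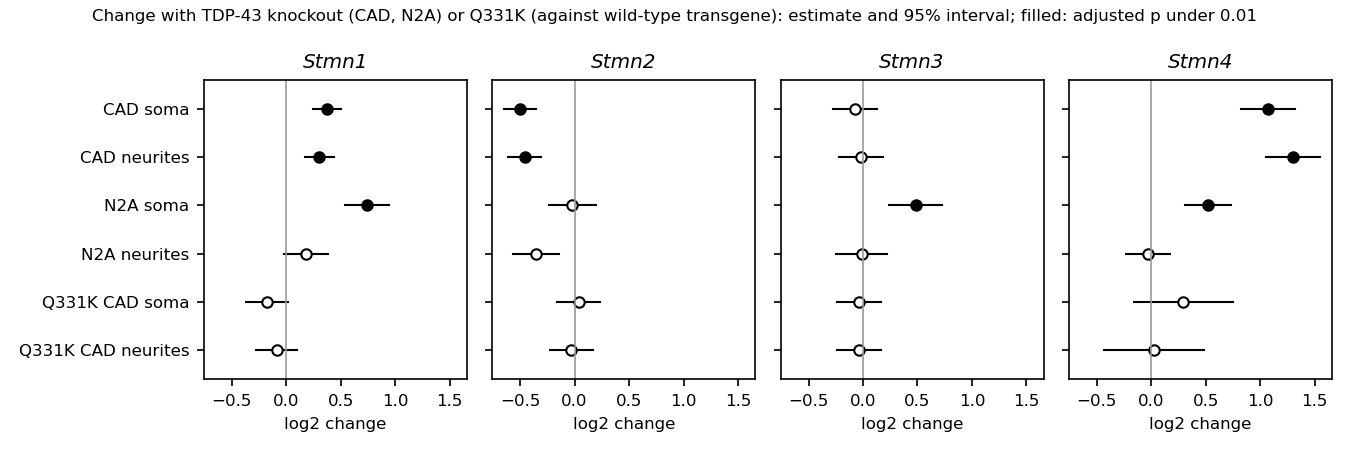
Log2 change of each member with its 95% interval in 6 comparisons (knockout against wild type in CAD and N2A, Q331K against wild-type transgene, each in soma and neurites), with filled points for an edgeR adjusted p under 0.01. In CAD soma Stmn2 is at -0.50 and Stmn4 at 1.07, in N2A soma they are at -0.02 and 0.52, and no point of the Q331K comparisons is filled.

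The knockout effects of the lines were compared directly in 1 fit of all 24 CAD and N2A libraries. In soma the difference passed for Stmn2 and Stmn3, 2 of 4 members, where 10.5% of 19700 genes did (7.87% with a lower value in CAD). The log2 change of Stmn2 was lower in CAD than in N2A by 0.55 (difference -0.55, SE 0.13, edgeR adjusted p = 0.00474). For Stmn3 the difference was -0.64 (SE 0.17, edgeR adjusted p = 0.00938). Both calls were lost when any of 7 soma libraries was left out, namely CAD wild type 3, CAD knockout 1 or 3, N2A wild type 1 or 2, or N2A knockout 2 or 3. Both were also lost with upper-quartile scaling, under which Stmn4 passed, and with length-scaled counts, and that of Stmn3 with DESeq2's size factors or library size alone. Stmn1 differed by -0.45 (edgeR adjusted p = 0.0107) and Stmn4 by 0.47 (edgeR adjusted p = 0.0400) without passing. With the replicate number as a block the Stmn1 difference passed (edgeR adjusted p = 0.00535). In neurites Stmn4 alone of the 4 differed between lines, by 1.28 (SE 0.16, edgeR adjusted p = 3.53e-06), where 9.18% of genes were called (2.94% with a higher value in CAD). This is the difference between a 2.46-fold rise in CAD neurites and N2A neurites that did not separate by genotype. The sources used here do not say whether CAD and N2A libraries were prepared together, and line and any such batch cannot be told apart.

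In the transgene experiment no member passed the test of Q331K against wild-type TDP-43 in either fraction. edgeR called 0% of the 13940 tested genes in soma or in neurites, with 995 and 1372 genes at an unadjusted p under 0.05. DESeq2 called none in soma and 14 genes in neurites (0.355% of those it tested), none of them a stathmin. Stmn2 was at 200, 197 and 195 CPM with the wild-type transgene and at 211, 188 and 207 CPM with Q331K in soma. The libraries overlapped and the interval of the log2 change ran from -0.17 to 0.24, which leaves out a fall of the size seen in the CAD knockout soma. For Stmn1 in soma the interval was -0.37 to 0.01, around 176, 162 and 205 CPM against 145, 164 and 171 CPM. Stmn3 had an interval of -0.24 to 0.17, with libraries at 90.3, 90.1 and 90.9 CPM against 92.1, 86.5 and 86.7 CPM. Stmn4 was at 6.37, 4.65 and 4.96 CPM against 5.82, 5.86 and 7.88 CPM, from 62 to 134 counts a library over the whole experiment. Its interval of -0.16 to 0.75 held both 0 and a rise as large as that in N2A soma. In neurites Stmn2 was at 447, 524 and 389 CPM against 475, 427 and 429 CPM. The log2 changes there were -0.09 for Stmn1, -0.03 for Stmn2, -0.04 for Stmn3 and 0.02 for Stmn4, with edgeR adjusted p values of 0.799 to 0.982. Their intervals ran from -0.28 to 0.10, -0.23 to 0.17, -0.24 to 0.16 and -0.44 to 0.49 in that order. None of the 4 had libraries that stood apart, as 14.1% of tested genes did in soma and 13.8% in neurites. Tardbp was at 705 to 875 CPM in these libraries, in which reads of the transgene and of the cells' own gene were not told apart.

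The neurite/soma ratio (LR, the log2 of neurite over soma) was above that of the median gene for all 4 stathmin RNAs on the TMM scale, in every group of cells. In wild-type CAD cells LR was 0.93 for Stmn2, 0.82 for Stmn3, 0.73 for Stmn1 and 0.26 for Stmn4. Stmn1, Stmn2 and Stmn3 passed (edgeR adjusted p = 1.02e-07, 2.63e-08 and 2.65e-06) and Stmn4 did not (edgeR adjusted p = 0.0807), where 23.7% of genes were called higher in neurites. With library size alone Stmn2 was the only member still called above 0 there, and Stmn1 and Stmn3 had edgeR adjusted p values of 0.476 and 0.229, the highest over their alternatives (lowest 7.01e-38 and 3.98e-17). In the other CAD groups too, knockout and transgene cells included, library size alone left 1 member called. In wild-type N2A cells LR was larger for all 4, at 1.56 for Stmn1, 1.47 for Stmn3, 1.38 for Stmn4 and 1.35 for Stmn2. All 4 passed there (largest edgeR adjusted p = 3.18e-08), where 32.5% of genes were called in that direction. Cells with the wild-type transgene had LR of 1.2 for Stmn2, 0.61 for Stmn3, 0.49 for Stmn1 and 0.33 for Stmn4, and the first 3 of these passed (14.9% of genes called higher). The Q331K cells gave 1.13, 0.60, 0.58 and 0.06 in that same order, again with Stmn4 alone not called (16.7% of genes called higher). In knockout cells all 4 members passed in both lines, where 24.6% of genes in CAD and 25.3% in N2A were called higher in neurites. Their LR was 0.66, 0.97, 0.88 and 0.49 in CAD for Stmn1 to Stmn4, and lay between 0.83 for Stmn4 and 1.01 for Stmn2 in N2A. Leaving out the first CAD knockout neurite library removed the call of Stmn4 in CAD (edgeR adjusted p = 0.0143).

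These ratios are relative to the other RNAs of a library, and their sign depended on the scale. TMM set the median LR of all tested genes near 0 (-0.02 in wild-type CAD and -0.03 in wild-type N2A). With CPM by library size alone the median was -0.55 in wild-type CAD cells, and the 4 stathmins lay between -0.41 and 0.26. On the deposited TPM scale the median was -1.29, and the stathmins lay between -1.63 and -0.78. Read against the median, the members stood at percentiles 69.7 to 95.5 of tested genes in wild-type CAD on the TMM scale and at 29.8 to 76.4 on the TPM scale. In wild-type N2A cells they stood at percentiles 96.0 to 98.7 on the TMM scale and at 83.7 to 96.9 on the TPM scale, with TPM values of -0.45 to -0.06 about a median of -1.11. The annotated microRNA genes took 21.9% of TPM in wild-type CAD soma and 48.3% in neurites, and 13.8% and 55.4% in wild-type N2A, against 0.0458% at most on average in a group of the transgene experiment. Mitochondrial genes took 5.13% of counts in wild-type CAD soma and 17.8% in neurites, and 5.27% and 5.58% in N2A. Nuclear RNAs summed to 122 to 382 TPM in wild-type CAD soma and 25.2 to 39.2 TPM in neurites, mostly from Malat1 (means of 231 and 33.9 TPM).

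**Figure D4:**
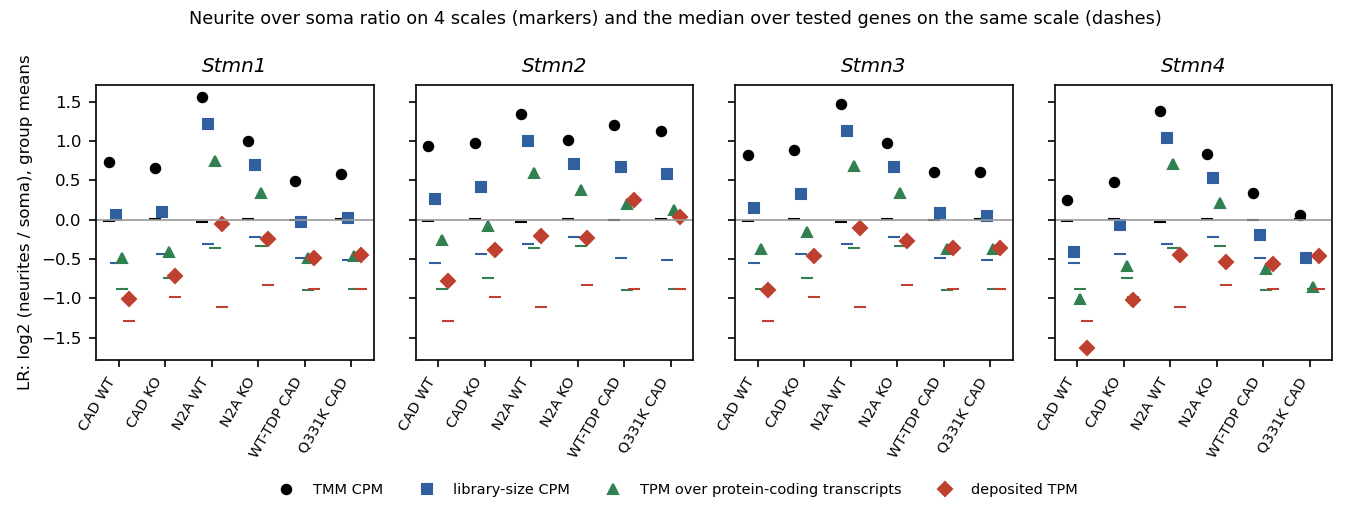
LR of the group means (log2 neurite over soma) of each member in 6 groups of cells on 4 scales (TMM-scaled CPM, CPM by library size, TPM over protein-coding transcripts, deposited TPM), with dashes for the median of all tested genes. In wild-type CAD cells the members lie at 0.25 to 0.93 on the TMM scale and at -1.63 to -0.78 on the deposited TPM scale, where the median is -1.29.

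The knockout did not change LR of any member at the threshold in either line. In CAD the change was -0.07 for Stmn1, 0.04 for Stmn2, 0.06 for Stmn3 and 0.23 for Stmn4, where 0.432% of genes were called. Their intervals reached from -0.26 to 0.11 for Stmn1 and from -0.12 to 0.58 for Stmn4, and the sign of the Stmn1 value turned on the library-size scale. In N2A all 4 values were below 0, at -0.56 for Stmn1 (95% interval -0.85 to -0.28, edgeR adjusted p = 0.0345), -0.33 for Stmn2 (-0.64 to -0.03, edgeR adjusted p = 0.130), -0.50 for Stmn3 (-0.84 to -0.16, edgeR adjusted p = 0.0585) and -0.55 for Stmn4 (-0.84 to -0.26, edgeR adjusted p = 0.0351). They were below 0 on all 4 scales, from -0.19 to -0.03 on the deposited TPM scale. edgeR called 0.1% of genes in this comparison and DESeq2 23.3%, including Stmn1, Stmn3 and Stmn4. The adjusted p of these 3 ranged from 0.000217 to 0.117, from 0.00625 to 0.142 and from 0.000929 to 0.117 over 22 alternatives each. Nuclear RNAs summed to 32.0 to 47.2 TPM in wild-type and 52.0 to 69.9 TPM in knockout N2A neurites, beside 216 to 653 and 100 to 480 TPM in soma. Most of these sums came from Malat1, at mean TPM of 36.9 and 58.3 in those neurites and 369 and 231 in soma. Meg3 was under 1 TPM in every group. None of the 3 nuclear RNAs was at 0 in every library of a group, and their part in the LR values was not tested. The difference between lines in the LR change was 0.51, 0.39, 0.58 and 0.80 for Stmn1 to Stmn4 (edgeR adjusted p 0.0908 to 0.263), and 0.203% of genes were called there. For Q331K the LR changes were 0.09, -0.07, -0.01 and -0.27, each with an edgeR adjusted p of 0.999, where 0% of genes were called and 605 genes had an unadjusted p under 0.05.

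In wild-type soma Stmn2 was 2.23-fold and Stmn3 3.08-fold higher in CAD than in N2A (edgeR adjusted p = 1.27e-10 and 2.75e-11). Stmn4 was 1.63-fold lower in CAD (edgeR adjusted p = 1.25e-05), and Stmn1 did not pass (log2 difference -0.25, edgeR adjusted p = 0.0154). In this comparison 51.2% of genes were called. Levels can be ordered between genes only per length, and TPM was used for that. In wild-type CAD soma the mean TPM was 283 for Stmn3, 280 for Stmn2, 217 for Stmn1 and 20.8 for Stmn4, with overlapping libraries between neighbours among the first 3. In knockout CAD soma the order was Stmn1 at 248, Stmn3 at 237, Stmn2 at 176 and Stmn4 at 41.7 TPM, and the Stmn2 libraries lay wholly below those of Stmn3. In N2A the order was Stmn1, Stmn2, Stmn3 and Stmn4 in all 4 groups, with 305, 151, 107 and 41.8 TPM in wild-type soma and 454, 138, 135 and 53.3 TPM in knockout soma. Stmn2 and Stmn3 overlapped in each of the N2A groups. In the wild-type transgene cells Stmn1 led in soma at 339 TPM and Stmn2 in neurites at 278 TPM, and the Q331K cells had the same leaders at 301 and 259 TPM. The libraries of Stmn1 and Stmn2 overlapped in the wild-type transgene neurites and in the Q331K soma, and the leader was higher in 2 of 3 libraries in each. By counts per kilobase of the longest coding transcript, Stmn1 led in the neurites of both transgene groups. Stmn4 was the lowest in all 12 groups. Between genotypes the TPM of the 4 genes gave 24 comparisons, and the smallest p of the exact two-sided permutation test was 0.1, the smallest that 3 against 3 libraries allow (0.343 after adjustment).

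Within each gene 1 transcript carried most of the signal, except for Stmn4. Stmn1-201 made up 95.6% to 99.2% of Stmn1 TPM in every group, and Stmn3 has a single annotated transcript. Stmn2-201 made up 94.5% to 95.7% of Stmn2 TPM in CAD, 88.6% to 90.7% in N2A and 79.4% to 86.5% in the transgene cells. In CAD soma the knockout changed Stmn1-201, Stmn2-201 and Stmn4-201 in the directions of their genes, with log2 changes of 0.39, -0.48 and 0.99 (edgeR adjusted p = 0.00407, 0.00247 and 0.00429, 4.15% of 49076 transcripts called). In CAD neurites Stmn2-201 and Stmn4-201 passed, at -0.45 and 1.14 (edgeR adjusted p = 0.00308 and 0.00161, 5.48% called). In N2A soma Stmn1-201 alone passed, at 0.85 (edgeR adjusted p = 0.00102, 3.06% called). No stathmin transcript passed in N2A neurites (1.72% called), in the Q331K comparisons (0.00288% in soma and 0.023% in neurites) or for an LR change (0.0795% in CAD, 0.0283% in N2A and 0.0144% for Q331K). Stmn4 was spread over several transcripts, with 40.7% of its TPM on Stmn4-201, 27.9% on the retained-intron transcript Stmn4-208 and 14% on Stmn4-204 in wild-type CAD soma, and 34.9%, 25.8% and 10.9% in knockout soma.

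The minor Stmn2 transcripts were followed because of the place of the 3′ UTR matches shown above. Stmn2-203, which skips 8 of the 9 starts, was estimated from 14.6 to 76.5 counts a library, where the whole gene had 2432 to 15895. It is 308 bases long beside 2073 for Stmn2-201, so its share of TPM is larger than its share of counts. The 2 transcripts overlap, and the split of reads between them is an estimate. Stmn2-203 held 2.96% of Stmn2 TPM in wild-type and 4.35% in knockout CAD soma, and 12.5% with the wild-type transgene against 19.5% with Q331K in soma. The other 4 shares were slightly lower in the changed cells, at 4.47% and 4.03% in CAD neurites, 8.75% and 8.61% in N2A soma, 9.44% and 8.89% in N2A neurites, and 15.1% and 14.7% in the transgene neurites. The Q331K soma shares came from 24.8, 33.4 and 29.5 TPM against 65.6, 49.9 and 34.1 TPM, and the shares differed with an exact permutation p of 0.1 and an adjusted p of 0.635 over 108 such comparisons. Stmn2-202 is annotated as a retained-intron transcript of 3413 bases at chr3:8509515-8548773 that does not reach the 3′ UTR. It was at 2.59, 3.15 and 2.5 TPM in wild-type CAD soma and at 1.83, 1.21 and 1.41 TPM in knockout. In N2A soma it was at 3.19, 3.20 and 3.21 TPM in wild type and at 2.19, 1.15 and 1.09 TPM in knockout, below the wild type in every library. Neither difference passed (log2 change -0.71 and -0.98, edgeR adjusted p = 0.166 and 0.0591). LR of transcripts is on a TMM scale set over transcripts, in a fit apart from that of the genes. It does not compare directly with gene values, such as 1.35 for Stmn2 in wild-type N2A cells. In those cells Stmn2-201 had an LR of 1.63 (edgeR adjusted p = 3.96e-06). Unlike it, Stmn2-202 was lower in neurites than in soma there, with an LR of -1.98 (SE 0.29, edgeR adjusted p = 0.000296, 29.5% of transcripts called). In wild-type CAD cells it was at -0.97 (edgeR adjusted p = 0.0226, 15% of transcripts called) beside 1.14 for Stmn2-201. Its TPM in neurites was 0.148 to 0.405 across the CAD and N2A libraries. Only annotated transcripts were quantified, and none of them has an exon of its own in the first Stmn2 intron, so a mouse counterpart of the human cryptic exon could not be seen here.

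**Figure D5:**
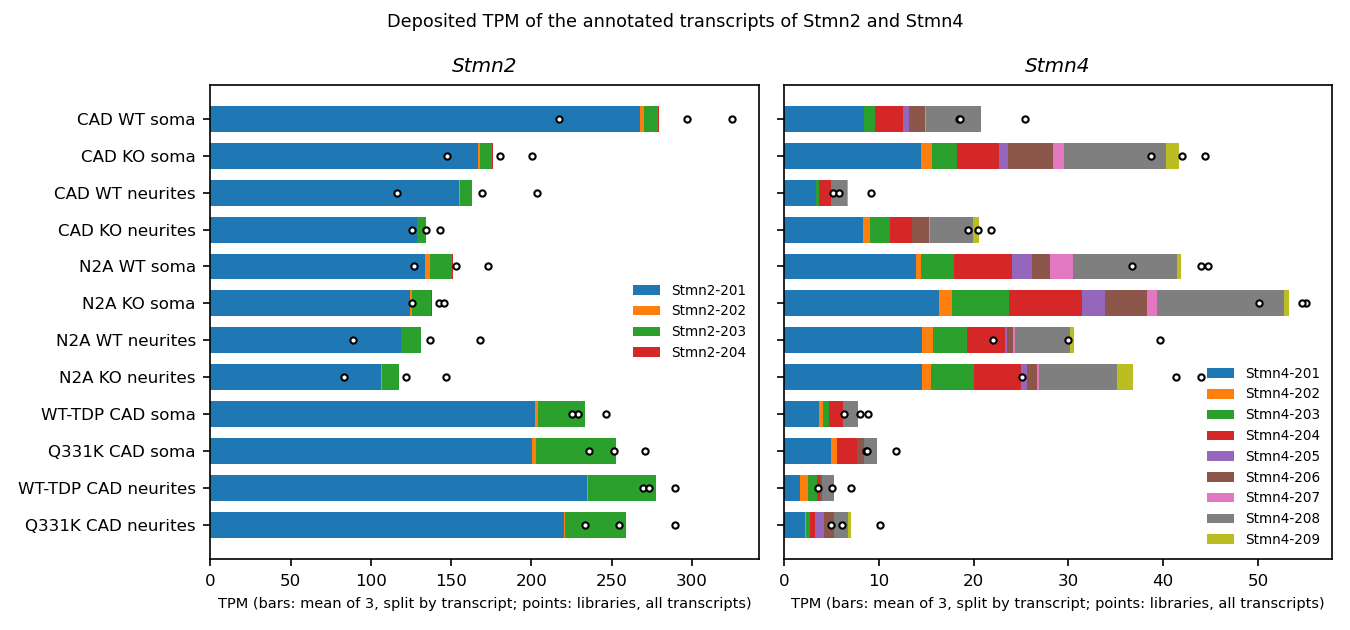
Mean TPM of each annotated transcript of Stmn2 and Stmn4 in the 12 groups as stacked bars, with points for the total of each library. Stmn2-201 makes up 94.5% to 95.7% of Stmn2 in CAD and 79.4% to 86.5% in the transgene cells, and Stmn4 is split over Stmn4-201, Stmn4-208, Stmn4-204 and others.

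Among the tubulin genes, whose products the stathmins bind, CAD soma had 1 that rose and 5 that fell of 11 tested, where 22.8% of all genes were called (1943 rose and 2007 fell), with a median log2 change of -0.25 beside 0.00 for all genes. Tuba4a rose (log2 change 0.38), and Tuba1a (-0.39), Tubb2a (-0.39), Tubb2b (-0.34), Tubb4b (-0.25) and Tubb6 (-0.30) fell. In CAD neurites 1 rose and 6 fell, with a median of -0.29, where 25.3% of all genes were called. In N2A soma 4 of 10 rose and none fell, namely Tuba1b (0.44), Tubb2b (0.36), Tubb3 (0.49) and Tubb5 (0.53), with a median of 0.20 beside -0.02 for all genes, of which 10.9% rose. Only Tubb6 changed in N2A neurites (-0.79), where 11.6% of all genes were called. Tubulin genes are near-identical in sequence, so that counts may be split between them and single values are uncertain. In wild-type cells all 11 tubulins tested in CAD, all 10 in N2A and 5 of 11 in the transgene cells had a called LR above 0, with medians of 0.60, 1.06 and 0.33 on the TMM scale, where 23.7%, 32.5% and 14.9% of all genes did. With library size alone the number of genes called above 0 in wild-type CAD fell from 4103 to 666. In wild-type soma 9 of 11 tubulins were higher in CAD than in N2A and none lower, led by Tuba4a (log2 difference 6.74), Tubb5 (1.23) and Tubb2b (1.04), where 5913 of all 19700 genes were higher in CAD. The knockout effect in soma was lower in CAD than in N2A for 5 of the 11 and higher for none, with a median difference of -0.48 beside -0.02 for all genes, of which 7.87% were called lower. With upper-quartile scaling the median of all genes moved to 0.17 in that comparison, and the called genes from 520 higher and 1550 lower to 1118 and 864.

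Of the kinases that phosphorylate stathmins, 4 of 14 rose in CAD soma and 6 of 13 in N2A soma, and none fell in either. Of all genes, 22.8% were called in CAD soma and 16.1% in N2A soma, where 10.9% rose. Aurkb and Cdk1, kinases of mitosis, rose most, by log2 changes of 1.39 and 1.17 in CAD soma (edgeR adjusted p = 3.46e-05 and 7.42e-08) and of 1.58 and 1.32 in N2A soma (edgeR adjusted p = 2.37e-05 and 9.56e-07). Aurkb also rose in the neurites, by 1.29 in CAD and 1.12 in N2A. In N2A neurites 2 of 13 kinases rose and none fell, where 11.6% of all genes were called. In CAD neurites 3 of 14 rose and 1 fell, near the 25.3% of all genes called there. The medians of the kinase list were 0.08 in CAD soma and 0.34 in N2A soma, beside 0.00 and -0.02 for all genes. In wild-type cells 8 of 14 kinases in CAD, 9 of 13 in N2A and 4 of 13 in the transgene cells had a called LR above 0 on the TMM scale, and none a called LR below 0, beside 23.7%, 32.5% and 14.9% of all genes above 0. Cdk1 had an LR of 1.31 in CAD and 1.5 in N2A. In wild-type soma 10 of 14 kinases were higher in CAD than in N2A and 1, Cdk1, was lower (-1.02). Of all 19700 genes, 5913 were called higher in CAD and 4176 lower. Camk4 (5.78), Mapk13 (3.13) and Pak1 (1.01) had the widest gaps upward among the kinases.

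The DLK and JNK stress pathway, which acts on the neuronal stathmins and controls axon loss, had 8 tested genes. In CAD soma Jun, the transcription factor that JNK activates, rose (log2 change 0.55). Map3k13, a kinase related to DLK, fell (-0.40), as did Nmnat2 (-0.48), an enzyme that keeps axons alive, and the median was -0.20. In CAD neurites 1 rose and 4 fell (median -0.30), and in N2A soma Jun alone rose (0.78). Of all genes 25.3% were called in CAD neurites and 16.1% in N2A soma, so that 1 of 8 is near the share of all genes. Of 6 genes of the REST repressor complex, which keeps Stmn2 silent outside neurons, Hdac1 (0.25) rose and Rest (-0.46) and Rcor1 (-0.29) fell in CAD soma, and Ehmt2 alone rose in N2A soma (0.28), beside 22.8% and 16.1% of all genes called. In CAD neurites Ehmt2 (-0.44) and Rcor1 (-0.28) fell. In N2A neurites neither list had a called gene, and no gene of the 4 lists had a called LR change in either line. The Q331K comparisons called none of the genes of these lists. For LR in wild-type cells the DLK and JNK list had 3 genes above and 1 below 0 in CAD, 4 and 2 in N2A, and 3 and 1 in the transgene cells, and the REST list had 2 and 3, 2 and 1, and 1 and 2. Of all genes 4103 and 3064 of 17343 were called above and below 0 in CAD. The counts over all genes were 5825 and 4773 of 17912 in N2A, and 2084 and 1753 of 13940 in the transgene cells. With lists of 8 and 6 genes, a difference from these shares was not tested. Map2k7, a kinase upstream of JNK, had an LR of 3.83 in wild-type CAD, 1.26 in wild-type N2A and 3.48 in the wild-type transgene cells on the TMM scale. Mapk8ip1, a scaffold of the JNK pathway, was higher in CAD than in N2A wild-type soma by 1.66. Listed genes named with changes under 1 were chosen after their values were seen.

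The genes whose group means followed each member most closely were found by Pearson's r of log2 CPM over the 12 groups, among 9038 genes with at least 5 CPM in each group. The 12 points share libraries, lines and scalings and the tables were normalised separately, so these values are a description. For Stmn1 they were Eif3g, a translation initiation factor (r 0.993), Alyref, an mRNA export factor (0.990), and Ica1 (0.989). For Stmn2 they were Gm7336 (0.975) and Fis1, a mitochondrial fission factor (0.957). For Stmn3 they were Ccm2 (0.986), Arfip2 (0.979) and Ppp2r1a, the scaffold subunit of a protein phosphatase (0.976), and for Stmn4 Alkbh3 (0.987), D6Wsu163e (0.984) and Shq1 (0.984). Among the members Stmn2 and Stmn3 were the most alike, at 0.873, followed by Stmn1 and Stmn4 at 0.655. Stmn2 and Stmn4, the members that moved in opposite directions in CAD knockout cells, were at -0.00942.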

How the data were processed

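Total RNA from soma and neurites was made into libraries with a KAPA mRNA kit. The authors quantified transcripts with Salmon after cutadapt (per the submitters' notes), and the deposited tables give, for each transcript, an estimated count, a TPM and an effective length. The identifiers matched GENCODE release M21, and the transgene tables held 133618 transcripts against 135181 in the others. Here the estimated counts were summed by gene and rounded. At most 0.129% of the counts of a library had no gene and were left out.

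edgeR 4.0.16 in R 4.3.3 (TMM, filterByExpr, quasi-likelihood test, Benjamini-Hochberg adjustment, threshold 0.01) was fitted to all genes of each experiment, and to CAD and N2A together for differences between lines. DESeq2 1.42.0 and limma 3.58.1 were alternatives. LR change is the interaction of genotype and fraction. TPM and transcript shares were compared by exact permutation over libraries. The members and lists were chosen with earlier results of these data known. Named were the members, their transcripts holding at least 5% of gene TPM, Tardbp, listed genes past the threshold with a log2 change of at least 1, and the 3 genes most like each member, of which some are not reported here. Scripts were tested on simulated data.

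Same-numbered wild-type and knockout libraries deviated together in soma (r 0.13 to 0.56 in CAD and 0.20 to 0.60 in N2A) and less so in neurites (0.03 to 0.18 and 0.09 to 0.21). Pairs of different numbers reached r 0.31 in CAD soma and 0.28 in N2A soma, above the lowest same-number values. In neurites such pairs reached 0.10 and 0.054.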

Additional observations from a re-analysis of the deposited data

Results flagged for a closer look

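The 3 differences between CAD and N2A in the knockout effect that passed the direct test in edgeR concern Stmn2, Stmn3 and Stmn4. For Stmn2 in soma the difference was -0.55 on the log2 scale, from a CAD change of -0.50 and an N2A change of -0.02. For Stmn3 in soma it was -0.64, from -0.07 in CAD and 0.48 in N2A. For Stmn4 in neurites it was 1.28, from 1.30 in CAD and -0.03 in N2A. The soma differences were lost without single libraries and with upper-quartile scaling or length-scaled counts, that of Stmn3 also with DESeq2's size factors or library size alone, and the neurite difference kept its call under every alternative run.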

How the results depend on the processing

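The falls of Stmn2 and the rises of Stmn1 and Stmn4 in CAD, and the rises of Stmn1 and Stmn4 in N2A soma, kept their direction under every alternative run. Of the values recomputed without 1 library, 1026 kept their direction and side of the threshold, 33 were no longer past it, 7 came past it and 38 turned in sign. The main limits are 3 libraries a group, the scaling between soma and neurites, and few Stmn4 counts in the transgene experiment. The cause of the changes below was not tested.

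Under library size alone (added after seeing the data), the number of members called for LR in wild-type CAD and in knockout CAD fell to 1 each, as it did for the wild-type transgene and for Q331K. Under that scaling Stmn4 had LR of -0.41 and -0.074 in wild-type and knockout CAD and of -0.19 and -0.49 in the wild-type transgene and Q331K cells, and Stmn1 was at -0.028 in the former of these. It also gave 0.090 for Stmn3 in CAD neurites, 0.045 for the CAD LR change of Stmn1, -0.026 for Stmn4 in Q331K neurites, and differences between lines in neurites of 0.055 for Stmn2 and 0.15 for Stmn3. On the deposited TPM scale (also added) wild-type LR was -1.01, -0.78 and -0.89 for Stmn1, Stmn2 and Stmn3 in CAD, -0.059, -0.20, -0.11 and -0.45 for Stmn1 to Stmn4 in N2A, and -0.48 and -0.36 for Stmn1 and Stmn3 with the wild-type transgene. On TPM over coding transcripts the CAD values were -0.49, -0.26 and -0.37 and the transgene values -0.49 and -0.38. The order of the members kept in 7 of 12 groups with counts per kilobase of the longest coding transcript.

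Length-scaled counts gave 0.0050 for Stmn3 in CAD neurites, 0.10 for Stmn2 in N2A soma, 0.080 for Stmn4 in N2A neurites, 0.0026 for Stmn3 in Q331K neurites, and Q331K LR changes of 0.022 for Stmn3 and 0.093 for Stmn4. Stmn2 in N2A soma was at 0.0098 with DESeq2 and with its size factors, and at 0.0034 without a filter. In N2A neurites Stmn3 was at 0.0089 with upper-quartile scaling and at 0.019 with at least 10 counts in every library, where Stmn4 was at 0.00085. At an adjusted p under 0.05, with library size alone and with DESeq2 1 member was called in N2A neurites. For the N2A LR change 2 members passed at 0.05, and 3 without a filter or with DESeq2. For the difference between lines in soma 4 members passed at 0.05, with at least 10 counts or with DESeq2, 1 with upper-quartile scaling or with size factors, and 0 with length-scaled counts. Without a filter 1 member passed for the difference in the LR change.

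With the replicate number as a block, Stmn1 passed for the difference between lines in soma, and no other call of a member changed. The block by number raised the all-gene count for the N2A LR change from 18 to 42 and for the line difference in it from 40 to 71. A block by culture, joining soma and neurites of a number, gave 0.00056 for the Q331K LR change of Stmn3.

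Without single libraries, members ranged in CAD from -0.15 to 0.023 (Stmn3, soma), from -0.11 to 0.060 (Stmn3, neurites), from -0.046 to 0.14 (Stmn3, LR change) and from -0.012 to 0.091 (Stmn2, LR change). In N2A they ranged from -0.086 to 0.13 (Stmn2, soma), from -0.083 to 0.030 (Stmn3, neurites) and from -0.12 to 0.020 (Stmn4, neurites). For Q331K neurites the ranges were -0.14 to 0.079 (Stmn2), -0.17 to 0.030 (Stmn3) and -0.17 to 0.16 (Stmn4), and for its LR change -0.010 to 0.16 (Stmn1), -0.18 to 0.042 (Stmn2) and -0.14 to 0.062 (Stmn3). LR of Stmn4 in Q331K cells ranged from -0.13 to 0.23. The neurite difference between lines ranged from -0.0081 to 0.11 for Stmn1 and from -0.16 to 0.027 for Stmn3. The number of members called ranged from 0 to 2 for the N2A LR change and from 0 to 3 for the soma difference between lines. Stmn1 and Stmn4 passed for the N2A LR change without the first N2A knockout soma library.

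Counts over all genes also moved. For the CAD LR change 75 genes became 280 without a filter and 223 with DESeq2. For the N2A LR change 18 became 145 with upper-quartile scaling, 922 without a filter, 132 with at least 10 counts and 1909 with DESeq2. Without a filter the Q331K comparisons called 141 genes in soma, 103 in neurites and 53 for LR. For the line difference in the LR change 40 genes became 68 with upper-quartile scaling, 72 with library size alone, 225 without a filter, 88 with at least 10 counts and 330 with DESeq2.

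Called genes split into higher and lower as follows, with the reported fit first. CAD neurites had 2038 and 2342, and with library size alone 2605 and 1414. The CAD LR change had 39 and 36, and with library size alone 51 and 18. LR with library size alone moved from 4103 and 3064 to 666 and 9936 in wild-type CAD, from 4271 and 3291 to 773 and 8172 in knockout CAD, from 2084 and 1753 to 531 and 7020 with the wild-type transgene and from 2333 and 2025 to 531 and 7173 with Q331K. N2A soma had 1955 and 922, with upper-quartile scaling 1435 and 1492, with library size alone 1432 and 1194, and with length-scaled counts 1965 and 474. N2A neurites had 1161 and 913, and with library size alone 963 and 1459. The N2A LR change had 16 and 2, and with DESeq2 344 and 1565. N2A LR moved from 5825 and 4773 to 4254 and 6624 (upper-quartile) and 3982 and 6832 (library size) in wild type, and from 4534 and 2355 to 3431 and 3478, 3671 and 2992 (size factors) and 2431 and 4297 (library size) in knockout. CAD against N2A soma moved from 5913 and 4176 to 4706 and 5632 with upper-quartile scaling. The soma difference between lines moved from 520 and 1550 to 1118 and 864 (upper-quartile), 747 and 732 (library size), 1020 and 1194 (at least 10 counts) and 300 and 1040 (length-scaled), and the neurite difference from 580 and 1228 to 1127 and 1299 (upper-quartile) and 2014 and 683 (library size).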
